A study of Mus musculus with 11 samples.

Results

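The comparison set 4 polycistronic reprogramming cassettes whose Klf4 carries an N-terminal extension (OSKM, OK+9MS, MKOS and OKN-HAMS, called here the long-Klf4 cassettes) against Klf4 expressed without the other factors (Klf4S and Klf4L). It used 6 of the 11 arrays of the series and all 19938 genes that 1 probe set could be assigned to. The arrays were chosen by construct name. The labels mark the extension in OK+9MS and in Klf4L ("Klf4+9") and a tag in OKN-HAMS, whereas the long form in OSKM and MKOS was taken from what is known of the study and not from the labels.

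All cells were male mouse embryonic fibroblasts of 13.5 dpc embryos, from F1 hybrids of a ROSA-rtTA C57Bl6 backcross mother and a Nanog-GFP BAC transgenic C57Bl6/129SV father. They received a piggyBac PB-TAC transposon that carries 1 construct, together with the pCyL43 transposase plasmid. Doxycycline at 1 ug/mL in ES cell medium, started after 24 h, turned the construct on through rtTA. The 4 long-Klf4 cassettes, the 2 Klf4 constructs and 4 other cassettes (OKMS, STEMCCA, EB-C5 and WTSI) were sorted for mCherry on day 6, and 1 lacZ population was taken unsorted on day 2. Each construct was measured on 1 array, so the spread within a group is the spread between constructs, and it holds both technical and construct differences. The Klf4-alone group itself holds 1 short and 1 long form.

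Reprogramming turns fibroblasts into induced pluripotent stem cells with Pou5f1 (Oct4), Sox2, Klf4 and Myc. Early in this process fibroblasts lose mesenchymal features and gain epithelial ones. Klf4 is a zinc finger transcription factor that binds CACCC-like sequences and is best known for its role in the skin barrier, where it acts in differentiating keratinocytes. Klf4 without partners therefore allows the part of a cassette's expression that Klf4 gives by itself to be set against what appears together with the other factors, which is the question of the comparison.

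The arrays were alike in scale, with medians between 7.19 and 7.27 on the log2 scale of the deposited values. Klf4S and Klf4L differed by a standard deviation of 0.126 over genes, and no gene stood 2-fold or more apart between them. Fibroblast markers were high on all 6 arrays, with a mean over 8 markers of 11.05 to 11.84 in the long-Klf4 cassettes and 12.22 to 12.28 in Klf4 alone. The 7 leukocyte markers averaged 6.43 to 6.69 and the 5 endothelial markers 6.55 to 6.88 on these arrays, with Ptprc, Csf1r and Cdh5 between 5.62 and 6.55. Cd68 and Tek were the members of those lists that exceeded 9 in the long-Klf4 cassettes.

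**Figure D1:**
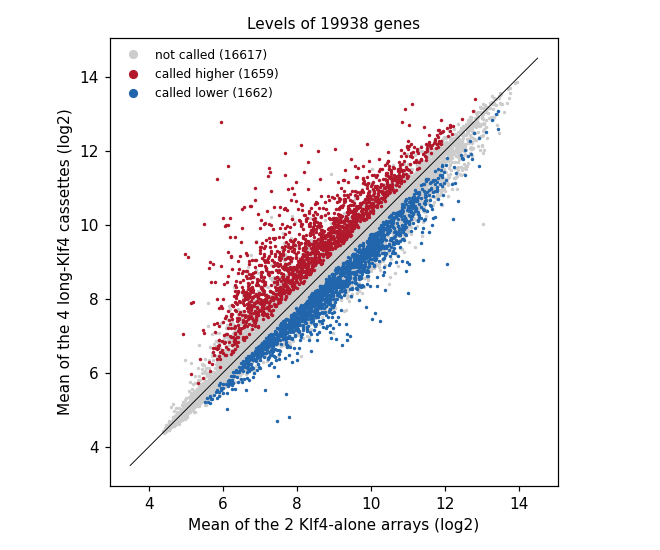
Each point is a gene, with the mean of the 2 Klf4-alone arrays on the x axis and the mean of the 4 long-Klf4 cassettes on the y axis, both as log2 RMA values. Red and blue points are the 1659 genes called higher and the 1662 called lower by limma; the points farthest from the diagonal line of equality lie above it, led by Pou5f1.

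Of the 19938 genes, 3321 (16.7%) differed between the long-Klf4 cassettes and Klf4 alone at a limma adjusted p under 0.05, 1659 of them higher (8.32%) and 1662 lower (8.34%). Large differences were mostly increases: 626 called genes were 2-fold or more higher and 239 were 2-fold or more lower. All 4 cassette arrays lay 2-fold or more above both Klf4 arrays for 295 genes, and 2-fold or more below both for 58. Without that margin, all 4 lay above both for 18.9% of genes and below both for 26.6%. The counts rest on both Klf4 arrays: 50 genes were called without Klf4S and 62 without Klf4L, where the remaining Klf4 array is assumed to vary like the cassettes. Leaving out OSKM or OK+9MS gave 1144 and 1082 calls, and leaving out MKOS gave 5667. In sorted bulk populations, a larger share of cells that express a gene and a higher level per cell cannot be told apart.

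The signals of the delivered factors differed from one another. Pou5f1 read 12.73 in OSKM, 13.01 in OK+9MS, 12.29 in MKOS and 13.12 in OKN-HAMS, against 6.06 in Klf4S and 5.84 in Klf4L. It was the highest gene of the comparison by difference (6.84 ± 0.24 SE, limma adjusted p = 0.000747), and the groups were far apart. Myc was 10.64 to 10.91 in the cassettes and 9.05 and 8.65 with Klf4 alone (difference 1.92 ± 0.14, adjusted p = 0.00306). Sox2 was 6.57 to 6.63 against 6.24 and 6.33, a difference of 0.31 ± 0.05 (adjusted p = 0.0206) at a level at which lacZ read 6.79. Klf4 was 9.65 to 10.19 in the cassettes, 9.93 and 9.71 with Klf4 alone and 9.47 with lacZ. The Klf4 probe set thus did not separate the groups (difference 0.10, 95% interval from -0.30 to 0.49), and its reading of the transgene was not tested.

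**Figure D2:**
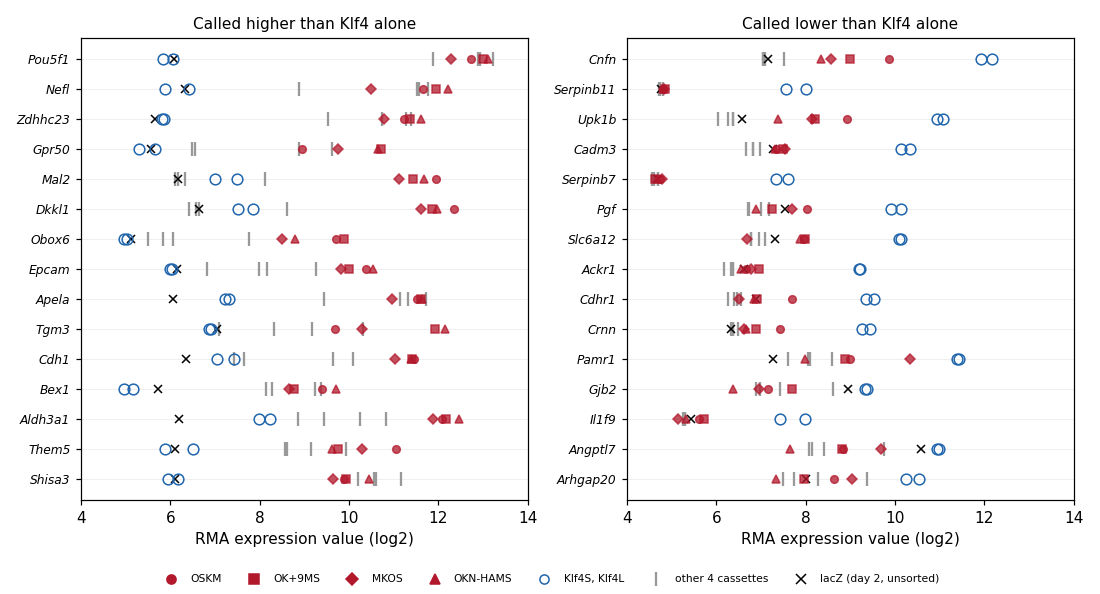
Log2 RMA values of the 15 genes called highest (left) and the 15 called lowest (right) against Klf4 alone, with 1 symbol per array. Red symbols are the 4 long-Klf4 cassettes, open blue circles Klf4S and Klf4L, grey ticks the other 4 cassettes and the cross the day 2 lacZ population; Pou5f1, Nefl and Zdhhc23 are high in both sets of cassettes, and Mal2 and Dkkl1 mainly in the red one.

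Behind Pou5f1, the genes with the largest increases fell into those that the other cassettes also raised and those that they did not. Nefl, the light chain of neurofilaments, read 11.65, 11.95, 10.50 and 12.22 in OSKM, OK+9MS, MKOS and OKN-HAMS and 6.42 and 5.89 with Klf4 alone (difference 5.43 ± 0.49, adjusted p = 0.0052). Zdhhc23, a palmitoyltransferase, read 11.23, 11.36, 10.79 and 11.61 against 5.82 and 5.86 (difference 5.41 ± 0.22, adjusted p = 0.000747). Both genes were at 8.89 or more in every other cassette, and neither differed between long-Klf4 and other cassettes (0.64 and 0.52, adjusted p = 0.756 and 0.638). Shisa3, Bex1 and Apela, a peptide ligand of the apelin receptor, showed the same arrangement, with differences from Klf4 alone of 3.91, 4.06 and 4.17. Where a gene lies under 6 in the lower group, as Zdhhc23, Bex1, Gpr50 and Obox6 do with Klf4 alone, the difference is a lower bound, since values under 6 were not told apart from background.

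Mal2 and Dkkl1 were above 11 on every long-Klf4 array and under 9 on every other array. Mal2, a membrane protein of epithelial transcytosis, read 11.94, 11.43, 11.13 and 11.68 in OSKM, OK+9MS, MKOS and OKN-HAMS, against 6.99 in Klf4S and 7.49 in Klf4L. The 4 cassettes lay above both Klf4 arrays and above the other cassettes, where OKMS read 8.11 and the rest 6.11 to 6.33 (long-Klf4 minus Klf4 alone 4.30 ± 0.25, adjusted p = 0.00158; minus other cassettes 4.87 ± 0.45, adjusted p = 0.0028). Dkkl1, a secreted relative of the Dickkopf proteins, read 12.35, 11.85, 11.62 and 11.98 against 7.52 and 7.85. OKMS again stood above the rest of the other cassettes at 8.61, against 6.41 to 6.65. Its differences were 4.26 ± 0.21 from Klf4 alone and 4.89 ± 0.48 from the other cassettes (adjusted p = 0.00111 and 0.00329). Aldh3a1, an aldehyde dehydrogenase known from corneal epithelium, was higher than Klf4 alone by 4.04 and higher than the other cassettes by 2.30, and Obox6, an oocyte homeobox gene, by 4.23 and 2.93. Gpr50, Tgm3 and Them5 completed the list with differences from Klf4 alone of 4.54, 4.13 and 3.99, and none of these 3 passed the test against the other cassettes.

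The genes with the largest decreases were genes that Klf4 alone held high. Cnfn (cornifelin), a protein of the cornified envelope of skin, read 11.92 in Klf4S and 12.18 in Klf4L, against 9.86, 8.99, 8.56 and 8.35 in OSKM, OK+9MS, MKOS and OKN-HAMS. The cassettes did not reach the Klf4 arrays (difference -3.11 ± 0.42, adjusted p = 0.0127), but they stayed above the other cassettes, which lay between 7.04 and 7.51 (difference 1.77, adjusted p = 0.0325). Upk1b, a uroplakin of urothelial membranes, was placed in the same way, at 11.07 and 10.94 with Klf4 alone and at 7.38 to 8.92 in the long-Klf4 cassettes (difference -2.84 ± 0.39, adjusted p = 0.0133), above the 6.03 to 6.36 of the other cassettes.

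Other genes held high by Klf4 alone were at the level of lacZ in the cassettes. Serpinb11, a clade B serpin, read 8.01 and 7.56 with Klf4 alone and 4.81, 4.84, 4.83 and 4.81 in OSKM, OK+9MS, MKOS and OKN-HAMS, with lacZ at 4.76 (difference -2.97 ± 0.12, adjusted p = 0.000747). Serpinb7, the gene measured next to it on chromosome 1, read 7.61 and 7.33 against 4.62 to 4.77, with lacZ at 4.68 (difference -2.77 ± 0.10, adjusted p = 0.000747). Both were at background in every cassette, so the differences are lower bounds. The genes measured on either side of the pair did not pass the test: Serpinb3c differed by -0.02 and Serpinb2 by -0.35 (adjusted p = 0.846 and 0.126). Ackr1, an atypical chemokine receptor, and Cadm3, a cell adhesion molecule, also adjoin on chromosome 1. Ackr1 read 9.22 and 9.20 with Klf4 alone and 6.56 to 6.96 in the cassettes (difference -2.46 ± 0.11), and Cadm3 10.33 and 10.14 against 7.30 to 7.54 (-2.82 ± 0.10). The 2 genes overlap on the same strand in RefSeq, so signal from one transcript cannot be told apart from the other. Aim2, a cytosolic DNA sensor and the next gene measured beyond Cadm3, went the other way, at 9.67, 9.14, 8.46 and 8.55 against 5.83 and 5.65 (difference 3.22 ± 0.35, adjusted p = 0.0083). Aim2 and these neighbours were picked out after their values were seen.

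The remaining genes of the 15 largest decreases were Pgf, Slc6a12, Crnn, Cdhr1, Pamr1, Gjb2, Il1f9, Angptl7 and Arhgap20, with differences from -2.56 (Pgf, placental growth factor) to -2.16 (Arhgap20). Gjb2, the gap junction protein connexin 26, read 9.33 and 9.37 with Klf4 alone and 6.36 to 7.69 in the cassettes. MKOS stood apart from the other 3 for some of these genes. Pamr1 was 10.33 in MKOS against 7.99 to 8.98 in the other 3, and Slc6a12, a betaine transporter, was 6.68 in MKOS against 7.87 to 7.98.

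Promoter sequences are shown for 4 of the genes above. Each holds CACACCC, a core that Klf factors bind, on either strand in the 250 bases before the RefSeq start. Matches are in capitals, and GGGTGTG is the reverse complement. Of the 51 genes named for the size of a difference or as a delivered factor, 37 had a promoter in the table and 7 of these held CACACCC. The holders Esx1, Il1f9 and Mall are not shown, and the 4 do not stand for the rest. Cadm3, Ackr1 and Cnfn were lower in the long-Klf4 cassettes than with Klf4 alone, whereas Tgm3 was higher. The windows are on GRCm38.p6: chr1:173367696-173367945 (minus strand), chr1:173333504-173333753 (minus), chr7:25369725-25369974 (minus) and chr2:130012090-130012339 (plus), each written 5′ to 3′ along the gene.
Cadm3: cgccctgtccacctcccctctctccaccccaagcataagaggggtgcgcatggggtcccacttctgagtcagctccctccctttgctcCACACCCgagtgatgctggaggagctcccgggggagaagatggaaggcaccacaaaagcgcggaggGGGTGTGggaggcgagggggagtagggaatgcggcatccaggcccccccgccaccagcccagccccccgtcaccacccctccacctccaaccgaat
Ackr1: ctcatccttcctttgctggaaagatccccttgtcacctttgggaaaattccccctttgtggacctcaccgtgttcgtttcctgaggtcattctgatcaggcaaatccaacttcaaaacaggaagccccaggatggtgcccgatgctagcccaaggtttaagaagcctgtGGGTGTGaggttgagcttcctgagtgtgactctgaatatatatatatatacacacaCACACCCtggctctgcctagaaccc
Cnfn: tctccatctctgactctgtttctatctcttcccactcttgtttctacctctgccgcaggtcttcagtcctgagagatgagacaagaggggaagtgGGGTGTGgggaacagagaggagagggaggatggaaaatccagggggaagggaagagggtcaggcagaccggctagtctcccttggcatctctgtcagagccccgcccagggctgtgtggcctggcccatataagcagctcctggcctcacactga
Tgm3: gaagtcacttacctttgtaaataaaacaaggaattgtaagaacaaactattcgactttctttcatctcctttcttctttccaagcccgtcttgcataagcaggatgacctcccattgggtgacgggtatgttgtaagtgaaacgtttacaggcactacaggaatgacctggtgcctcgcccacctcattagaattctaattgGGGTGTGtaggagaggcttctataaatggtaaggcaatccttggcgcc
Over 15563 genes with such a window, 8.59% held CACACCC. It was in 7.55% of the windows of genes higher than Klf4 alone (101 of 1338) and in 9.85% of those lower (128 of 1300). Against the other cassettes it was in 13.3% of those higher (40 of 300) and in 11.8% of those lower (10 of 85). For CACGTG, the E-box that Myc binds, the share was 8.12% over all genes, 9.87% for genes higher and 9.15% for genes lower than Klf4 alone. For TTTGCAT, part of the octamer that Pou5f1 binds, it was 4.39%, 4.19% and 3.23%. In genes higher and lower than the other cassettes, CACGTG was in 9.0% and 14.1% and TTTGCAT in 4.0% and 5.88%. These shares were not tested, and a match is not evidence of binding.

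Most epithelial junction genes were higher than with Klf4 alone. Of 34 measured, 25 were called higher and none lower (8.32% and 8.34% of all genes), with a median difference of 1.40 against -0.03 over all genes. Cdh1 (E-cadherin), the adhesion molecule of adherens junctions, read 11.46, 11.40, 11.03 and 11.39 in OSKM, OK+9MS, MKOS and OKN-HAMS and 7.05 and 7.42 with Klf4 alone. Epcam, an epithelial adhesion molecule, read 9.81 to 10.53 against 5.98 and 6.03. Neither gene's groups came near each other, with differences of 4.09 ± 0.16 and 4.18 ± 0.21 (adjusted p = 0.000747 and 0.00114). Esrp1, an epithelial splicing factor, and Spint1, an inhibitor of membrane serine proteases, were higher by 3.39 and 3.61. The transcription factor Ehf was higher by 3.78 ± 0.71, with MKOS at 8.84 below the 10.65 to 11.30 of the other cassettes of the group. Tight junction genes were called as well: Cldn4, Ocln, Cldn7 and Crb3 were higher by 2.91, 2.78, 2.09 and 2.05, and the epithelial transcription factor Ovol1 by 1.87. Ppl (0.04) and Grhl3 (-0.16) were among the 9 members not called. Without OSKM 18 members and without OK+9MS 19 were called higher, and without either Klf4 array 3 were.

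The same list stood higher than in the other cassettes as well, with 15 of 34 called higher and none lower (2.02% and 0.507% of all genes) and a median of 1.54. Cldn4 read 11.09, 11.17, 10.27 and 10.83 in the long-Klf4 cassettes and 7.25 to 8.20 in the other cassettes (difference 3.09, adjusted p = 0.00138). Cdh1 and Epcam had larger spread there: Cdh1 read 10.10 in OKMS and 9.63 in STEMCCA but 7.43 in EB-C5 and 7.65 in WTSI, and its difference of 2.62 did not pass (adjusted p = 0.0789). Leaving out OSKM or OK+9MS left 6 members called, leaving out EB-C5 8, WTSI or OKN-HAMS 9 and STEMCCA 10. Of 7 simple keratins 2 were called higher than Klf4 alone, Krt8 and Krt19, and 5 were not called; against the other cassettes 4 were called higher. Krt8 was 12.88 to 13.43 in the long-Klf4 cassettes, 10.97 and 11.23 with Klf4 alone and 9.18 to 11.61 in the other cassettes (differences 2.17 and 3.42, adjusted p = 0.00438 and 0.022), and Krt19 was higher by 2.32 and 2.83. Krt18, the partner of Krt8, differed from Klf4 alone by 0.87 (adjusted p = 0.155) and from the other cassettes by 1.81 (adjusted p = 0.0215).

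**Figure D3:**
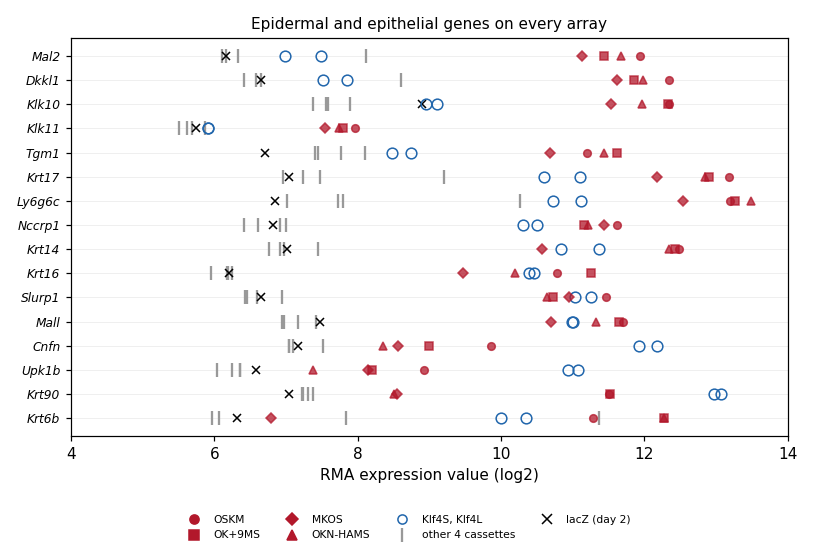
Log2 RMA values of 16 epidermal and epithelial genes on every array, with symbols as in the plot of the largest differences. From top to bottom the genes pass from those high in the long-Klf4 cassettes alone (Mal2, Dkkl1), through those alike in these cassettes and Klf4 alone (Krt16, Slurp1, Mall), to those highest with Klf4 alone (Cnfn, Upk1b, Krt90); MKOS lies apart from the other red symbols for Krt14 and Krt6b.

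Keratinocyte and cornified envelope genes, which build the outer layers of skin, split between the groups. Of 34 measured, 7 were called higher in the long-Klf4 cassettes than with Klf4 alone, 6 were called lower and 21 were not called (8.32% and 8.34% of all genes were called higher and lower), with a median of 0.12. Against the other cassettes, 17 of the same 34 were called higher and none lower (2.02% and 0.507% of all genes), with a median of 2.00. Both comparisons use the same 4 cassette arrays. Without OSKM 4 and without OK+9MS 2 members were called higher than Klf4 alone, and without MKOS 12 were; without either Klf4 array none was, and 1 was called lower.

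Members called higher included the transglutaminases Tgm1 and Tgm3, which crosslink the cornified envelope. Tgm1 read 11.20, 11.62, 10.68 and 11.43 in OSKM, OK+9MS, MKOS and OKN-HAMS, against 8.48 and 8.74 with Klf4 alone (difference 2.62 ± 0.26, adjusted p = 0.00686). Tgm3 read 9.68, 11.93, 10.28 and 12.14 against 6.90 and 6.86 (difference 4.13 ± 0.75, adjusted p = 0.023), with OSKM and MKOS lower than the other 2. The stress keratin Krt17 read 13.18, 12.90, 12.17 and 12.84 against 10.60 and 11.10 (difference 1.93 ± 0.30, adjusted p = 0.0166). Krt6a, Krt13, Sprr1b and Pkp1 were higher by 1.70, 1.53, 1.83 and 1.10. Among epidermal proteases, Klk10 read 12.35, 12.33, 11.53 and 11.97 against 8.95 and 9.11 and Klk11 was higher by 1.85, whereas Klk5 and Klk7, which act in skin shedding, were lower by 1.60 and 1.79 on the log2 scale.

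A further set of epidermal genes was at a similar level in the long-Klf4 cassettes and with Klf4 alone and near lacZ in the other cassettes. Slurp1, a secreted keratinocyte protein, read 11.46, 10.73, 10.95 and 10.64 in OSKM, OK+9MS, MKOS and OKN-HAMS, 11.25 and 11.03 with Klf4 alone, and 6.43 to 6.95 in the other cassettes. Krt16 read 10.78, 11.26, 9.47 and 10.19, against 10.39 and 10.46 and against 5.95 to 6.24. For both genes the Klf4 arrays fell inside the range of the long-Klf4 cassettes. The difference from Klf4 alone was -0.19 for Slurp1 (95% interval from -0.78 to 0.40) and 0.00 for Krt16 (-1.18 to 1.18), while the differences from the other cassettes were 4.34 and 4.28 (adjusted p = 0.000128 and 0.00137). Mall, Krt14, Sprr1a and Sprr3 had intervals from Klf4 alone that include 0 and were higher than in the other cassettes by 4.22, 4.93, 3.70 and 2.91. For Krt14, a basal keratin, MKOS at 10.57 lay below both Klf4 arrays (10.84 and 11.37) and the other 3 cassettes lay at 12.34 to 12.48. Krt5, Krt10 and Lor, basal and late differentiation markers, were not above 7.41 on any day 6 array.

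Over all genes, 504 (2.53%) differed between the long-Klf4 and the other cassettes, 403 higher (2.02%) and 101 lower (0.507%). Leaving out OK+9MS or OSKM left 162 and 167 calls, and leaving out EB-C5, OKMS or WTSI left 217, 299 and 304. The 10 largest increases were Krt17, Krt14, Ly6g6c, Dkkl1, Mal2, Nccrp1, Klk10, Slurp1, Krt16 and Mall, from 5.06 to 4.22. Nccrp1 had the smallest error among them: it read 11.62, 11.16, 11.43 and 11.21 in the long-Klf4 cassettes, 10.30 and 10.50 with Klf4 alone, and had a mean of 6.73 in the other cassettes (difference 4.62 ± 0.16, adjusted p = 4e-05). For each of the 10 largest decreases the Klf4-alone arrays also lay below the mean of the other cassettes. Nnat, an imprinted neuronal proteolipid gene, read 7.65 to 7.83 in the long-Klf4 cassettes, 8.63 and 8.46 with Klf4 alone and 9.22 to 10.95 in the other cassettes (difference -2.24, adjusted p = 0.0272). Bcl11a, Elavl4 and Msi1, genes of neural and blood progenitors, were lower by 2.01, 1.68 and 1.36 on the log2 scale, and Esx1, a placental homeobox gene, by 1.32. Bcl11a and Elavl4 did not differ from Klf4 alone (-0.34 and 0.05, adjusted p = 0.37 and 0.796).

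Mitotic genes were uniformly higher than with Klf4 alone. All 27 genes of the G2 and mitosis list were called higher, by 1.18 to 2.40, with a median of 1.68. Over all genes 8.32% were called higher and 8.34% lower, with a median of -0.03. Aurka, the Aurora A kinase of the spindle, read 10.33, 10.73, 9.66 and 11.00 in OSKM, OK+9MS, MKOS and OKN-HAMS and 8.07 and 7.99 with Klf4 alone (difference 2.40 ± 0.36, adjusted p = 0.0161). Bub1 and Cdc20, of the spindle checkpoint, were higher by 2.24 and 2.11. The order of the cassettes was the same in the list mean, with MKOS lowest at 9.21, OSKM and OK+9MS at 9.80 and 9.85 and OKN-HAMS highest at 10.14, against 8.07 and 8.05 with Klf4 alone. The lacZ population, on day 2 and unsorted, averaged 10.07 and the other cassettes 9.83 to 10.34, so that the low level was on the Klf4-alone arrays. Against the other cassettes limma called no member, beside 2.53% of all genes, and 4 of the 27 had an unadjusted p under 0.05. Without OSKM 13 and without OK+9MS 12 members were called higher, and without either Klf4 array none was.

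Genes of DNA replication and of ribosome synthesis were placed alike. The counts called stand beside 8.32% of all genes called higher and 8.34% called lower. Of 30 replication genes, 21 were called higher and none lower, with a median of 1.37. All 30 differences were above 0, as were 8447 of the 19938 genes. Mcm10 and Mcm6, of the replicative helicase and its assembly, were higher by 2.54 and 2.30, and Mcm6 read 9.71 to 10.47 in the cassettes and 7.85 and 7.88 with Klf4 alone. Of 29 Myc target and ribosome synthesis genes, 22 were called higher and none lower, with a median of 0.89. Tfrc, the transferrin receptor and a Myc target, read 10.66, 10.57, 10.11 and 10.40 against 7.58 and 7.72 (difference 2.79 ± 0.16, adjusted p = 0.00151), and Dkc1 and Polr1b were higher by 1.58 and 1.45. Of 17 nucleotide synthesis genes 9 were called higher, Ppat by 2.06. Replication calls fell to 5 without OSKM and 4 without OK+9MS, and Myc target calls to 11 and 12. Without Klf4S or Klf4L no replication gene was called, and 0 and 1 Myc targets were. Limma called none of 23 oxidative phosphorylation genes (7 at an unadjusted p under 0.05, median 0.18), and Ldha and Cdk4 differed by 0.08 and -0.01.

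**Figure D4:**
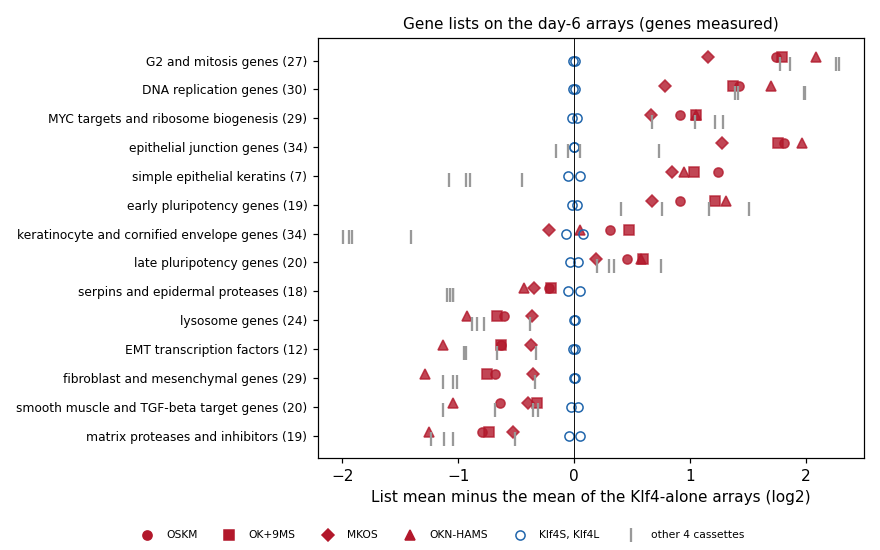
Each row is a gene list, with the number of genes measured; the x axis is the list's mean log2 value on an array minus its mean over the 2 Klf4-alone arrays. Red symbols are the long-Klf4 cassettes, open circles Klf4S and Klf4L and grey ticks the other cassettes; MKOS is the red symbol nearest 0 in 11 of the 14 rows, and in the rows for junction genes, both keratin lists and proteases all 4 grey ticks lie left of every red symbol.

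All 29 fibroblast and mesenchymal genes had differences below 0 (median -0.84), as did 11491 of the 19938 genes (median -0.03). Of the 29, 3 were called lower, a share near the 8.34% of all genes: Col3a1, a fibrillar collagen, by 1.16, Thy1 by 0.88 and Fbln2 by 0.80 on the log2 scale. Col3a1 read 10.05, 10.05, 10.74 and 9.62 in OSKM, OK+9MS, MKOS and OKN-HAMS and 11.31 and 11.25 with Klf4 alone. With lacZ it read 8.93, below every long-Klf4 cassette. OKN-HAMS was lowest and MKOS highest in the list mean (10.19 and 11.12), against 11.48 and 11.47 with Klf4 alone. The lacZ population, on day 2 and unsorted, averaged 10.66, below OSKM, OK+9MS and MKOS and above OKN-HAMS. Without MKOS 17 members were called, without OKN-HAMS 10 and without OSKM or OK+9MS none. With all 11 arrays in the fit none was called either. All 12 EMT transcription factors, which repress E-cadherin, were below 0 (median -0.72), and 1, Foxc1, was called, again near the share of all genes (-0.75 ± 0.15, adjusted p = 0.0288). Zeb1 read 10.39, 10.42, 11.04 and 9.52 against 11.51 and 11.41, a difference of -1.12 that did not pass (adjusted p = 0.104), and Snai2 differed by -0.86 (adjusted p = 0.0503). Without MKOS 8 of the 12 were called and without OKN-HAMS 6. The EMT list averaged 10.27 with lacZ, 10.21 and 10.23 with Klf4 alone and 9.09 to 9.85 in the long-Klf4 cassettes. Of 20 smooth muscle and TGF-beta target genes 4 were called lower (Des, Tgfb1, Tgfbi and Tpm2), with a median of -0.61. These 20 averaged 11.11 with lacZ, 10.79 and 10.73 with Klf4 alone and 9.71 to 10.44 in the long-Klf4 cassettes.

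Of 19 matrix proteases and inhibitors 9 were called lower and none higher, beside 8.34% and 8.32% of all genes (median -0.79), led by Adamts5, an aggrecanase, at 9.10, 8.60, 9.98 and 8.12 against 11.09 and 10.95 (difference -2.07 ± 0.49, adjusted p = 0.0421). Mmp13 and Mmp19 were lower by 1.56 and 1.34 on the log2 scale. The list averaged 9.1 to 9.83 in the long-Klf4 cassettes, 10.31 and 10.4 with Klf4 alone and 9.71 with lacZ. Without OSKM or OK+9MS no member was called, and with all 11 arrays in the fit 3 were. All 24 lysosome genes had differences below 0 (median -0.51), and all 4 cassettes lay below both Klf4 arrays for 23 of them, against 26.6% of all genes. Of these 24, 7 were called, Hexa, a hexosaminidase subunit, by -1.11 and Sgsh by -1.04. Without MKOS 19 and without OKN-HAMS 12 were called, and without OSKM or OK+9MS 1 was. The lysosome list averaged 10.12 to 10.68 in the long-Klf4 cassettes, 11.05 and 11.04 with Klf4 alone and 10.64 with lacZ. In both lists lacZ thus lay within the range of the long-Klf4 cassettes.

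Of 19 pluripotency genes that appear early in reprogramming 7 were called higher and none lower, beside 8.32% and 8.34% of all genes: Epcam, Alpl, Sall4, Zfp296, Lin28a, Lin28b and Trim71. Sall4, a zinc finger factor of the pluripotency network, read 9.42, 10.10, 8.60 and 9.89 in OSKM, OK+9MS, MKOS and OKN-HAMS and 7.14 and 6.98 with Klf4 alone (difference 2.45 ± 0.42, adjusted p = 0.0198). Of 20 late genes 2 were called higher, Nanog and L1td1, a share near that of all genes, and Tbx3 was called lower. The difference between the early and the late list was not tested. Nanog read 9.93, 9.20, 7.92 and 9.87 against 6.69 and 6.57 (difference 2.60 ± 0.58, adjusted p = 0.0361), was lowest in MKOS, and was called in 1 of the 6 fits that left out an array, that without MKOS. The cells carry a Nanog-GFP BAC, whose part in this signal was not tested. Zfp42, Dppa5a and Dppa3, markers of established pluripotent cells, differed by 0.09, 0.14 and -0.01. Early genes called numbered 4 without OSKM, 2 without OK+9MS, 11 without MKOS and 1 without either Klf4 array.

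In the remaining lists the counts of called members stand beside 8.32% of all genes called higher and 8.34% called lower. In the Notch pathway, the ligand Jag2, the receptor Notch4 and the targets Nrarp and Hey1 were higher than with Klf4 alone by 1.68, 1.55, 1.15 and 0.57, and the receptor Notch3 was lower by 0.71 on the log2 scale (4 and 1 called of 16). Nrarp and Hey1 were lower than in the other cassettes by 0.85 and 0.96. Among 17 Kruppel-like factors, Klf8, Klf16, Klf10 and Klf13 were higher by 1.83, 0.87, 0.49 and 0.32 and Klf6 was lower by 0.41. Of 23 neuronal genes 6 were higher, Nefl, Bex1, Avil, Syt1, Uchl1 and Stmn2, and none lower. Of 24 Wnt pathway genes Lef1 was higher by 1.12 and 5 were lower, among them the receptor Fzd1 and the secreted inhibitors Notum and Sfrp2. Among enzymes of the NRF2 response, Nqo1 read 9.08, 9.12, 8.60 and 9.07 against 10.54 and 10.51 (difference -1.56 ± 0.16, adjusted p = 0.00704), Hmox1 and Srxn1 were also lower, and the glutathione reductase Gsr was higher by 1.36. Of 23 interferon-response genes 3 were called lower, a share close to that of all genes (Irf7, Stat2 and Gbp3, median -0.76), and limma called none of 16 germline genes (1 at an unadjusted p under 0.05). Without Klf4S none of these calls remained in the Notch, Kruppel-like, Wnt, interferon and NRF2 lists or in the neuronal list, and without Klf4L 1 neuronal gene was called.

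Enzymes and regulators outside these pathways included some of the larger differences. List counts here also stand beside 8.32% of all genes called higher and 8.34% called lower. Aldh1a1, which makes retinoic acid, read 10.83, 10.21, 9.83 and 10.61 in OSKM, OK+9MS, MKOS and OKN-HAMS and 7.17 and 7.23 with Klf4 alone (difference 3.17 ± 0.28, adjusted p = 0.00507). The glucose transporter Slc2a3 was higher by 2.16 and the prolyl hydroxylase Egln3 by 1.38. Of 18 Polycomb and DNA methylation genes 5 were called higher and none lower, among them Uhrf1, a partner of the maintenance methyltransferase, by 2.03, the dioxygenase Tet2 by 1.71 and the histone methyltransferase Ezh2 by 1.12. Of 18 cholesterol synthesis genes 5 were called higher, and without OSKM or OK+9MS none was. Of 20 FGF and ERK feedback genes 5 were called lower and none higher, among them the ligands Fgf7 and Fgf10 by 1.63 and 1.06 and the feedback inhibitor Spry2 by 1.02 on the log2 scale; 7 of the 20 had differences above 0. Of 17 BMP and Id genes 4 were called lower, the ligand Bmp4 by 1.17, and Id2 was called higher by 1.24. Sox9, the regulator of cartilage, read 8.27 to 8.80 in the cassettes and 9.64 and 9.70 with Klf4 alone (difference -1.11 ± 0.15, adjusted p = 0.012). Esam, an endothelial adhesion molecule, was at 6.43 to 6.69 against 8.13 and 8.65, near the 6.93 of lacZ (difference -1.81 ± 0.16, adjusted p = 0.00509). Of these genes, those of the Polycomb, cholesterol, FGF and glycolysis lists were not called without Klf4S or without Klf4L.

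The 4 long-Klf4 cassettes were not equally far from Klf4 alone. MKOS stood nearest, with 433 genes 2-fold or more above the mean of the Klf4 arrays (2.17%) and 113 as far below (0.567%), in a comparison of single arrays without a test. OKN-HAMS stood farthest, with 1117 above (5.60%) and 1229 below (6.16%), while OSKM had 954 above (4.78%) and 480 below (2.41%) and OK+9MS 863 (4.33%) and 467 (2.34%). Of the 1659 genes called higher, MKOS was the lowest of the 4 for 1145, and of the 1662 called lower it was the highest for 1106. The median standard deviation of a gene over the 4 cassettes was 0.123, and 41 genes had one of 1 or more.

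The 5 genes that varied most among the 4 cassettes were Krt6b, Srgn, Krt90, Ces1f and Laptm5. Krt6b, a stress keratin, read 11.28, 12.27 and 12.28 in OSKM, OK+9MS and OKN-HAMS but 6.79 in MKOS, against a mean of 10.18 with Klf4 alone and 6.31 with lacZ. Krt90 followed another division, with OSKM and OK+9MS at 11.50 and 11.52 and MKOS and OKN-HAMS at 8.55 and 8.50, against 13.07 and 12.97 with Klf4 alone. Srgn (serglycin), a proteoglycan of secretory granules, read 12.12 in OSKM, 11.65 in OK+9MS, 9.38 in OKN-HAMS and 7.70 in MKOS. Ces1f, a carboxylesterase, was high in MKOS alone (10.37 against 6.77 to 7.37), and Laptm5, a lysosomal protein of blood cells, was 10.60 and 10.92 in OK+9MS and OKN-HAMS and 8.90 and 7.80 in OSKM and MKOS. None of the 5 was called by limma against Klf4 alone (adjusted p = 0.0987 to 0.886).

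MicroRNA genes of the imprinted region between Dlk1 and Dio3 on chromosome 12 were lower than with Klf4 alone. This region, which carries paternally expressed coding genes and maternally expressed noncoding RNAs, is known as a mark of full reprogramming in mouse cells. It was singled out after its values were seen. Of 40 measured microRNA genes of the region 12 were called lower and none higher, beside 8.34% and 8.32% of all genes. Their median was -0.33 and 38 differences were below 0, as were 11491 of the 19938 genes. Against the other cassettes limma called none of the 40 (1 at an unadjusted p under 0.05, median -0.06). Their mean was 6.39 to 6.54 in the long-Klf4 cassettes, 6.39 to 6.72 in the other cassettes and 6.78 and 6.82 with Klf4 alone. With lacZ, on day 2 and unsorted, it was 6.54, so the highest means were on the Klf4-alone arrays. Among 260 other microRNA genes on the array 3 were called lower and none higher, with a median of -0.01. Of these 260, 139 were under 6 on every array, against 8 of the 40. The probe sets read the hairpin or its host RNA and not the mature microRNA. The mature sequences of the 5 called genes with the largest differences are given from RefSeq (GRCm38.p6), with the seed, bases 2 to 8, in capitals. The 23 mature sequences of all 12 called genes had 23 different seeds.
mmu-miR-382-5p: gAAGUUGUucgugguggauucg
mmu-miR-382-3p: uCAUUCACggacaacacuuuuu
mmu-miR-154-5p: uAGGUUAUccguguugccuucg
mmu-miR-154-3p: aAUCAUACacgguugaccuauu
mmu-miR-329-5p: aGAGGUUUucugggucucuguu
mmu-miR-329-3p: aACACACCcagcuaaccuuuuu
mmu-miR-485-3p: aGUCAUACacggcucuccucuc
mmu-miR-134-5p: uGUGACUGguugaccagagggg
mmu-miR-134-3p: cUGUGGGCcaccuagucacc
Mir485 read 7.60, 7.60, 7.50 and 7.57 in OSKM, OK+9MS, MKOS and OKN-HAMS and 8.20 and 8.22 with Klf4 alone (difference -0.64 ± 0.06, adjusted p = 0.00509). Mir329 read 7.38, 7.29, 7.44 and 7.41 against 8.03 and 8.10 (-0.69 ± 0.06, adjusted p = 0.00588), Mir382 7.41, 7.69, 7.99 and 7.53 against 8.42 and 8.62 (-0.86 ± 0.17, adjusted p = 0.0267), and Mir134 8.41 to 8.66 against 9.00 and 9.04. In each of these 4, picked from the called genes, the groups did not overlap. All 4 cassettes lay below both Klf4 arrays for 28 of the 40, against 26.6% of all genes. Mir154, Mir136, Mir411, Mir543 and Mir496a had cassette means under 6, at background. Mir136 and Mir411 were under 6 with Klf4 alone as well (5.86 and 5.78, 5.61 and 5.77), so their calls lie within background. The lacZ population read 7.75 for Mir485, 7.44 for Mir329 and 8.27 for Mir382, below both Klf4 arrays, and 9.10 for Mir134, above both. Without OSKM 5, without OK+9MS 3 and without either Klf4 array none of the 40 was called.

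**Figure D5:**
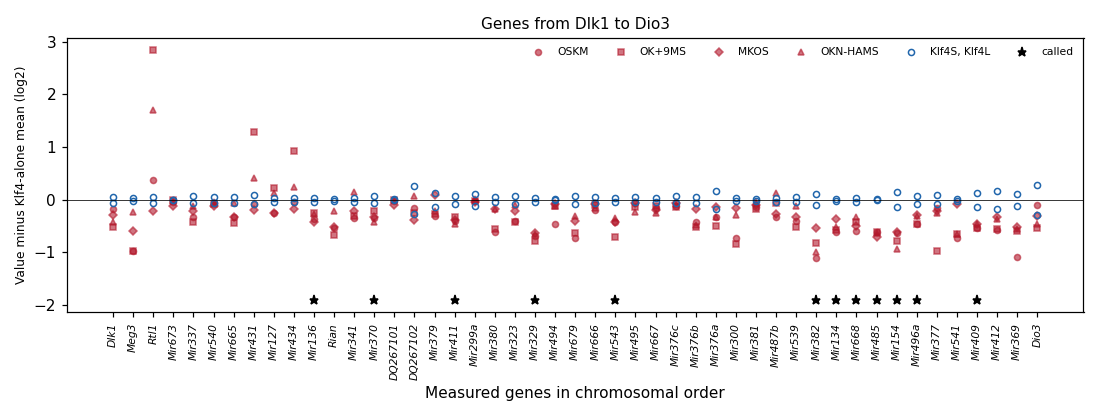
The 47 measured genes from Dlk1 to Dio3 in chromosomal order, with each array's log2 value minus the mean of Klf4S and Klf4L on the y axis. Red symbols are the long-Klf4 cassettes, open circles the Klf4 arrays and stars the genes called by limma; most red symbols lie below 0, and the highest above 0 are those of OK+9MS and OKN-HAMS for Rtl1 and of OK+9MS for Mir431 and Mir434.

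The host and coding genes of the region did not pass the test. Meg3, the maternal noncoding RNA, read 10.48, 10.48, 10.87 and 11.22 against 11.43 and 11.49 (difference -0.70 ± 0.22, adjusted p = 0.0854), and Rian and Dlk1 differed by -0.49 and -0.35 (adjusted p = 0.0535 and 0.0688). Rtl1, a paternally expressed gene of retrotransposon origin, was highest in 2 cassettes, at 10.01 in OK+9MS and 8.87 in OKN-HAMS. It read 7.55 in OSKM, 6.95 in MKOS and 7.23 and 7.11 with Klf4 alone. Among the other cassettes OKMS read 8.32 and the rest 6.93 to 7.22, so the rise was not confined to the long-Klf4 cassettes. Mir431 and Mir434, which lie antisense within Rtl1, followed with 8.63 and 6.05 in OK+9MS, and Mir431 read 7.75 in both OKN-HAMS and OKMS. Whether these probe sets read the antisense gene was not tested.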

How the data were processed

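The authors deposited log2 expression values made with RMA (per the submitters' processing notes; version and annotation are not given in the sources used here) from Affymetrix Gene ST arrays, 1 per construct, of 28856 probe sets. RMA corrects background and quantile-normalizes, which makes arrays alike in distribution and can hide a global shift. Probe sets were named through the platform annotation (21789 with 1 symbol, 1621 with several, 5446 with none), and the probe set with the highest mean stood for each of 19938 genes.

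Differences were tested with limma 3.58.1 in R 4.3.3 (lmFit and eBayes; 4 long-Klf4 cassettes against 2 Klf4-alone arrays with 4 residual degrees of freedom, and against the 4 other cassettes with 6), adjusted by Benjamini-Hochberg over all genes and called under 0.05. The scripts were tested on simulated data. Values under 6 were treated as background. P-values measure only the spread between constructs. Named genes were the 15 largest called differences each way with a mean of 7 or more (predicted genes, small RNAs and receptors of smell or taste left out), up to 4 called per list, the 4 factors, the 10 largest each way against the other cassettes, and the 5 with the largest spread. Members and lists (782 of 828 entries measured) were chosen with earlier results of these data known.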

Additional observations from a re-analysis of the deposited data

Results flagged for a closer look

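Of the 167 genes named by rule, each was looked at in the 4 long-Klf4 cassettes and in the 4 other cassettes, 334 groups in all. In 24 of them 1 array stood far from the other 3 by Dixon's ratio. Chance alone gives about 1 group in 20 where groups are not selected. These genes were named from the same values, some of them for their spread, so that rate cannot be set against the 24. In the long-Klf4 cassettes MKOS stood apart for 9 genes: Apela (10.97), Cd68 (9.16), Cdh1 (11.03), Krt14 (10.57), Krt8 (12.88), Nqo1 (8.60) and Slc6a12 (6.68) were lowest there, and Ces1f (10.37) and Serping1 (10.10) highest. OKN-HAMS stood apart for Comp (6.60) and Plin4 (6.87). In the other cassettes OKMS stood apart for Acsbg1 (9.02), Cp (6.86), Dkkl1 (8.61), Jag2 (9.56), Krt8 (11.61), Mal2 (8.11) and Rrp9 (11.43). STEMCCA stood apart for Cnfn (7.51), Lgmn (11.47), Mmp19 (10.04), Nefl (8.89) and Serpinb11 (4.80), and EB-C5 for Tgfb1 (8.40). The Serpinb11 values were all under 6, at background, with the nearest at 4.74, so that flag reads as noise.

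A further 25 flags mark named genes whose difference from Klf4 alone was not the same in the long-Klf4 and the other cassettes. The test was limma's comparison of the long-Klf4 with the other cassettes. The flags do not cover every named gene that passed it, since Cldn4 and Krt8, named from gene lists, also passed. The long-Klf4 cassettes were higher for Krt17 (5.06), Krt14 (4.93), Ly6g6c (4.92), Dkkl1 (4.89), Mal2 (4.87), Nccrp1 (4.62), Klk10 (4.44), Slurp1 (4.34), Krt16 (4.28), Mall (4.22), Obox6 (2.93), Aldh3a1 (2.30), Upk1b (1.92), Cnfn (1.77) and Cadm3 (0.60). They were lower for Nnat (-2.24), Bcl11a (-2.01), Armcx4 (-1.97), Cnpy1 (-1.82), Elavl4 (-1.68), Msi1 (-1.36), Acsbg1 (-1.34), Esx1 (-1.32), Pde3b (-1.31) and Tbx21 (-1.28). Krt17 to Mall and all the lower genes were named as the 10 largest called differences each way in this same test. They were therefore certain to be flagged, and their flags are no further result. Obox6, Aldh3a1, Upk1b, Cnfn and Cadm3 were named for their difference from Klf4 alone.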

How the results depend on the processing

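The comparison with Klf4 alone had 1659 genes called higher and 1662 lower. With all 11 arrays or the 10 day 6 arrays in the fit, the lower calls were 1046 each; higher calls, and both counts after median centring, a further quantile normalization, a filter on dim genes, averaging a gene's probe sets, or eBayes with trend and robust settings, stayed within 1.5 times. Leaving out 1 array gave 50 to 5667 calls, 36 to 2586 higher and 14 to 3081 lower; the lowest came without a Klf4 array, which leaves a single array in that group. Against the other cassettes (403 higher, 101 lower, 504 in all), the 11-array fit gave 200 lower and 800 in all, and leaving out 1 array gave 162 to 613 calls, 149 to 520 higher and 13 to 106 lower. Of the 149 named genes called against Klf4 alone, 105 were called and 44 were not with all 11 arrays or the 10 day 6 arrays in the fit, 148 were called without MKOS, 79 without OSKM, 75 without OK+9MS, 15 without Klf4S and 16 without Klf4L; none changed direction in any fit run. No paired analysis was possible because the labels number no replicates and each construct is on 1 array. The number of arrays limits the precision.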
